A study of Mus musculus with 9 samples.

Results

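Glycolysis, the pentose phosphate pathway and glycogen metabolism share their first intermediate, glucose 6-phosphate, and 35 genes of these routes were followed through 9 RNA libraries of mouse bone marrow cells. They were the rows of the expression table, out of 23420 gene symbols, whose symbol matched a fixed list of 20 glycolytic genes, 7 pentose phosphate genes, 3 sugar and lactate transporters and 5 genes of glycogen metabolism. All 35 were found, and 34 of them passed the filter on low values (2 or more libraries with RPKM of 1 or above). Only Eno2, the neuronal enolase, did not. RPKM divides the reads of a gene by its transcript length and by the size of the library, so levels of different genes are compared here per length.

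The cells were sorted from marrow of C57BL/6 mice for Mac1, the integrin alpha M chain carried by granulocytes, monocytes and some dendritic cells, with 100 cells going into each library. In all 3 groups both copies of Ezh2 and of Runx1 were floxed (fl/fl). The WT group (n = 3) carried nothing further, so it is a floxed control and not an unmodified mouse. The ITD group (n = 2) also had 1 internal tandem duplication allele of the receptor kinase Flt3 (ITD/+) and no Cre. The DKOITD group (n = 4) had that Flt3 allele together with Rag1Cre+. Rag1 is active in early lymphoid progenitors, and the sources used here do not give the share of Mac1+ cells descended from cells that made Cre, nor the age of the mice or whether they had leukaemia. Since the labels do not state that each library is a different animal, every p-value below measures the spread between libraries only.

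In glycolysis, glucose enters the cell through facilitative transporters, is trapped by hexokinase and is split and oxidised to pyruvate, most of which becomes lactate in cells that do not rely on mitochondria. The pentose phosphate pathway branches off at glucose 6-phosphate and yields NADPH and ribose phosphate, while glycogen is a store that phosphorylase returns to the same branch point. Neutrophils are known for relying on glycolysis and glycogen, and they use NADPH from the pentose phosphate pathway to feed the oxidase that makes superoxide.

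Whole reads recovered from the RPKM came to between 2825200 and 23121348 per library. Itgam, which encodes the sorted antigen, was present in every library, at 10.98 to 39.0 RPKM in DKOITD, 78.1 to 97.3 in ITD and 90.3 to 143 in WT. Ezh2 at 1.54 to 18.1 RPKM in DKOITD and 2.05 to 12.4 in WT, and Runx1 at 10.4 to 17.6 and 3.53 to 13.02, overlapped between those groups. Runx1 was at 4.42 in both ITD libraries, below every DKOITD library, and Ezh2 at 12.9 to 19.0 there, with neither gene past the test in any comparison. A value per gene takes in exons outside the floxed part and therefore does not check the deletion. The cell type markers were unequal between the groups: 12 of 16 neutrophil markers tested were lower and 14 of 16 dendritic cell markers higher in DKOITD than in WT (limma, adjusted over all genes). Summed neutrophil marker RPKM ran from 37403 to 266601 in DKOITD, 685922 to 729853 in ITD and 885498 to 1194430 in WT, and summed dendritic cell marker RPKM from 9521 to 38324, from 4243 to 11406 and from 53.9 to 1231. In bulk samples, fewer cells of a type and less RNA per cell cannot be told apart, which holds for every result below.

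The sugar genes covered a wide range of levels. Taldo1, the transaldolase of the pentose phosphate pathway, had the highest median RPKM over the 9 libraries, at 502 (237 to 787). Aldoa, the main aldolase, followed at 246 to 593 RPKM. By contrast Gapdh, usually among the most abundant transcripts of a cell, was listed at 3.44 to 31.4 RPKM, 25th of the 35 by its median, and Eno1, the ubiquitous enolase, at 0 to 1.51 RPKM. A search of GENCODE vM21 transcripts found 7 of the 35 genes to have another gene with at least 95% identity over at least 50% of the coding sequence: Gapdh (74 such genes, 69 of them pseudogenes), Eno1 (3), Pgk1 (2), Ldha (2), Pgam1 (1), Gpi1 (1) and Ldhb (1). For Gapdh, Pgk1 and Pgam1 the closest copy was 100% identical over the aligned stretch. How the authors' counting treated reads that match several genes is nowhere stated in the sources used here, so the levels of these 7 genes are uncertain and their part in the low values was not tested.

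Eno1 shows how alike such copies are. Coding bases 717 to 816 of Eno1 (chromosome 4) and the matching bases of the pseudogene Gm4735 (chromosome 2), both from GENCODE vM21, are shown because a read from this stretch meets only 2 positions that tell the loci apart, marked in capitals. Over all 1302 aligned bases the 2 differ at 5 positions, an identity of 99.62%.
Eno1: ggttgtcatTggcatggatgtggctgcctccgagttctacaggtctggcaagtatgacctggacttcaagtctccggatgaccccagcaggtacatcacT
Gm4735: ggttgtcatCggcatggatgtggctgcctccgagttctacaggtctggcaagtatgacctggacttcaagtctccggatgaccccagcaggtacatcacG

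**Figure D1:**
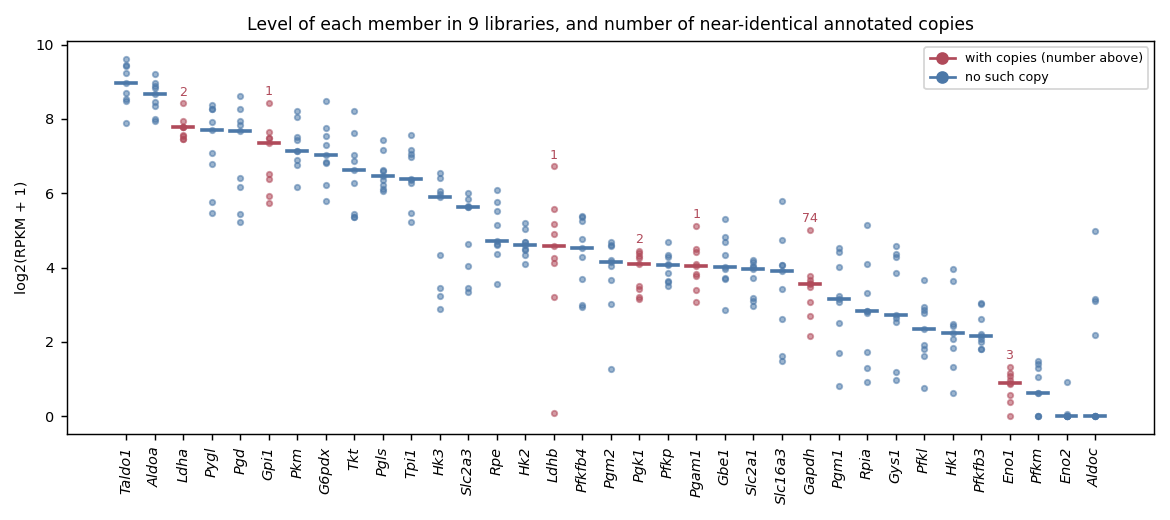
Level of each of the 35 genes as log2(RPKM + 1) in the 9 libraries (points) with the median (bar), in order of the median, and in red the 7 genes that have close copies elsewhere in the genome, with the number of copies above. Gapdh with 74 copies sits at 3.44 to 31.4 RPKM and Eno1 with 3 copies at 0 to 1.51 RPKM, both far below Aldoa at 246 to 593.

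DKOITD against WT asks how Mac1+ cells with the combined alleles differ from floxed controls. Of the 34 genes tested, 11 fell and 1 rose. The genes that fell were 4 of the 7 pentose phosphate genes (Pgd, Rpia, Tkt and Taldo1), the myeloid hexokinase Hk3, the glucose and lactate carriers Slc2a3 and Slc16a3, the glycogen enzymes Pygl and Gys1, and Gpi1 and Pfkfb4. Aldoc, the brain-type aldolase, was the gene that rose. Over all 10868 genes tested, 12.7% were called in this comparison, 5.27% lower and 7.43% higher (limma, adjusted p below the threshold of 0.05). In each of the 12 called genes no DKOITD library overlapped a WT library. Counting genes by overlap alone, 15 of the 34 lay wholly lower in DKOITD and 1 wholly higher, where the shares over all genes were 10.9% and 14.1%, 25% in all. At an unadjusted p under 0.05 (limma), 17 of the 34 passed, beside 30.2% of all genes. The median log2 difference of the 34 genes was -0.78, beside 0.17 over all genes, and 24 of 34 lay below 0 against 43.4% of all genes.

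By route the counts were as follows. In the pentose phosphate pathway 4 of 7 genes fell and all 7 differences lay below 0 as deposited, with a median of -1.19, while 4 of the 7 lay above 0 when columns were scaled to the same sum. Of the transporters 2 of 3 fell and of the glycogen genes 2 of 5. In glycolysis 3 of 19 tested genes fell and 1 rose, with a median of -0.27. These are counts of small groups, and no difference between routes was tested.

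**Figure D2:**
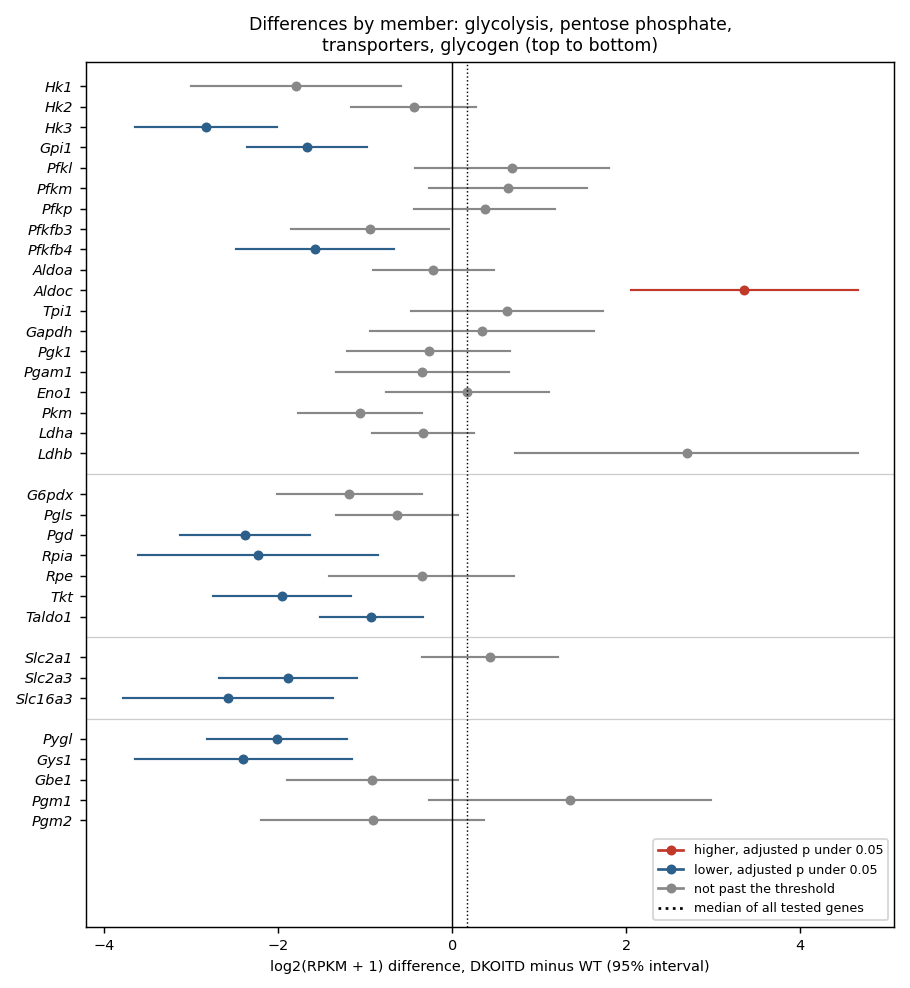
Difference in log2(RPKM + 1) between DKOITD and WT for the 34 tested genes (points, with 95% intervals from limma), in 4 blocks from glycolysis at the top through pentose phosphate and transporters to glycogen. Blue points passed the test as lower, the red point as higher and grey points did not pass, and the dotted line is the median of all tested genes at 0.17. With the deposited scaling the 7 pentose phosphate genes all lie left of 0, whereas glycolytic genes lie on both sides.

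With a term for the 2 series of numbers in the sample descriptions, described further on, none of the 34 genes passed (limma; adjusted p = 0.235 for Hk3, 0.285 for Pgd and 0.331 for Aldoc). The calls also depended on the scaling. Columns of the table were scaled by the authors in a way that makes the DKOITD columns smaller, per read, than the WT columns. Their denominators per recovered read were 1.13 to 1.44 in DKOITD and 0.703 to 0.809 in WT, relative to the geometric mean of the 9 libraries. Absolute denominators were not recovered. Rescaling per recovered read gave 7 falls and 3 rises among the sugar genes (247 falls and 2535 rises over all genes). Scaling every column to the same sum gave 3 falls and 11 rises (128 and 5009 over all genes), the rises being those of Aldoc, Aldoa, Hk2, Pfkl, Pfkm, Pfkp, Tpi1, Ldha, Ldhb, Pgm1 and Slc2a1. Quantile normalisation gave 11 falls and 1 rise (767 and 678 over all genes). Per recovered read, Gpi1, Pfkfb4, Rpia and Taldo1 no longer passed, and with columns of the same sum Tkt, Slc2a3, Pygl and Gys1 did not either. The median over all genes moved from 0.17 to 0.74, 1.21 and -0.03 under these scalings. Of the 34 differences, 24 lay below 0 as deposited and 11 with columns of the same sum. Under each of the 4 scalings, 25 lay below the median of all genes. The pentose phosphate genes lay below that median in 7 of 7 cases under all 4. Measured in the same way, each of the 12 called genes kept its sign under all 4 scalings. A factor applied to a column shifts most of its genes alike, and subtracting the median removes that shift. The steady counts and signs were thus largely fixed in advance and lend the calls no weight. Without the subtraction, Hk3, Pgd and Slc16a3 as falls and Aldoc as a rise passed the test under all 4 scalings. For Slc16a3 with columns of the same sum the margin was narrow (limma, adjusted p = 0.04998).

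**Figure D3:**
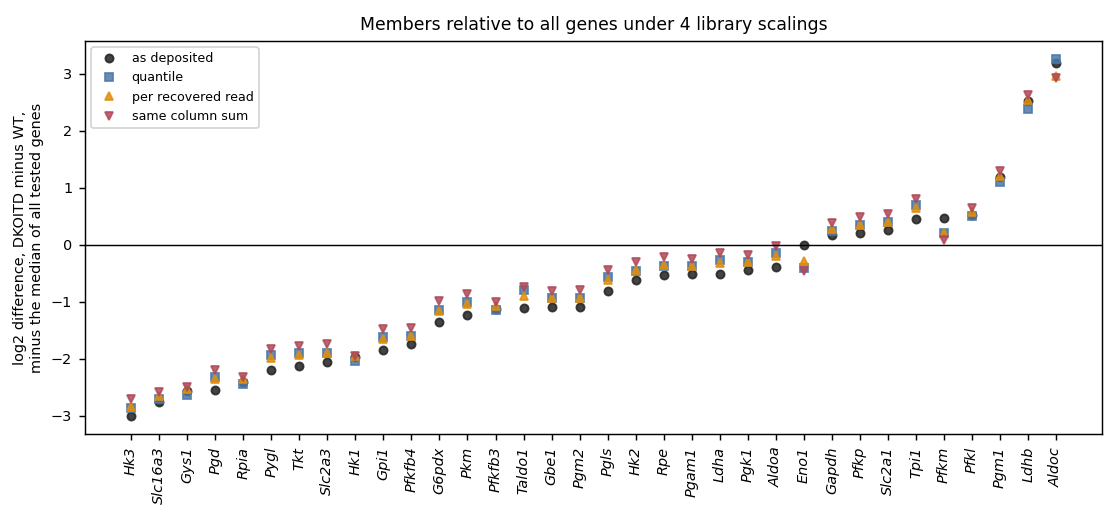
Log2 difference between DKOITD and WT of each of the 34 genes (horizontal axis) after subtraction of the median of all tested genes, under the deposited scaling and 3 others (marker shapes). The 4 markers of a gene lie close together, with Hk3 from -3.01 to -2.71 at the left and Aldoc from 2.93 to 3.27 at the right. The subtraction removes a shift shared by most genes, so this closeness is largely set in advance.

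The transporters of glucose followed here are Slc2a1, the widely expressed transporter GLUT1, and Slc2a3, the high-affinity transporter GLUT3 (chromosome 6, 122727809 to 122801640 in mm10). Slc2a3 measured 9.11, 10.02, 15.6 and 23.8 RPKM in DKOITD 1 to 4, 48.2 and 56.7 in ITD 1 and 2, and 48.7, 63.4 and 49.0 in WT 1 to 3. All 4 DKOITD libraries lay below the 5 others, and in DKOITD against WT Slc2a3 fell, with a log2 difference of -1.89 ± 0.36 (SE; limma, adjusted p = 0.00833). The WT mean was 3.67 times the DKOITD mean. With columns of the same sum Slc2a3 did not pass, at -0.54 (limma, adjusted p = 0.233). Slc2a1 measured 15.1, 17.4, 16.8 and 14.7 RPKM in DKOITD 1 to 4, 7.62 and 6.80 in ITD 1 and 2, and 12.2, 8.14 and 15.5 in WT 1 to 3. DKOITD and WT overlapped for Slc2a1, and its difference was 0.43 (95% interval -0.35 to 1.21), although it passed as a rise when values were scaled per recovered read or to the same sum. Slc2a3 made up 46.0% ± 11.8 of the summed RPKM of both transporters in DKOITD (SD, n = 4), against 87.8% ± 2.08 in ITD (SD, n = 2) and 81.5% ± 6.45 in WT (SD, n = 3; DKOITD against WT, two-sided exact permutation p = 0.0571, adjusted 0.103 over 9 shares). A share within a library does not depend on how that library was scaled.

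Hexokinase traps glucose as glucose 6-phosphate, and of its 3 genes Hk3 passed the test as deposited. Hk3 (chromosome 13, 55005985 to 55021385), the hexokinase typical of granulocytes and monocytes, measured 8.37, 9.87, 6.36 and 19.3 RPKM in DKOITD 1 to 4, 66.1 and 58.7 in ITD 1 and 2, and 61.8, 83.6 and 92.9 in WT 1 to 3. DKOITD 4 was the highest DKOITD library and still below every ITD and WT library. Hk3 fell, with a log2 difference of -2.84 ± 0.37 (SE; limma, adjusted p = 0.00173) against WT, and its WT mean was 7.24 times the DKOITD mean. Hk2, the inducible hexokinase bound to mitochondria, measured 21.1, 23.3, 16.1 and 24.7 RPKM in DKOITD 1 to 4, 19.1 and 24.7 in ITD 1 and 2, and 32.1, 35.4 and 21.5 in WT 1 to 3. Its groups overlapped, with a difference of -0.45 (95% interval -1.16 to 0.27) from WT. Hk1, the hexokinase of most tissues, measured 0.533, 4.43, 1.496 and 2.57 RPKM in DKOITD 1 to 4, 3.73 and 3.25 in ITD 1 and 2, and 11.4, 14.5 and 4.57 in WT 1 to 3. For Hk1 every DKOITD library lay below every WT library, yet the difference of -1.80 ± 0.56 (SE; limma, adjusted p = 0.0532) missed the threshold. It passed as lower after quantile normalisation, at -2.08 (limma, adjusted p = 0.0348), and without WT 3.

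As a share of the summed hexokinase RPKM, Hk3 took 27.9, 26.2, 26.5 and 41.5% in DKOITD 1 to 4, 74.3 and 67.8 in ITD 1 and 2, and 58.7, 62.6 and 78.1 in WT 1 to 3. The mean share was 30.5% ± 7.32 in DKOITD (SD, n = 4) and 66.5% ± 10.3 in WT (SD, n = 3), a difference of -36.0 percentage points (two-sided exact permutation p = 0.0286, which 4 libraries against 3 cannot go below, and 0.103 after Benjamini-Hochberg adjustment over 9 shares). Hk2 took the larger share in DKOITD, at 63.1% ± 7.57 (SD, n = 4) against 25.0% ± 6.36 in WT (SD, n = 3), with the same exact p. Shares in the 2 ITD libraries, 74.3% and 67.8% for Hk3, lay in the range of WT. So the leading hexokinase transcript per length was Hk2 in each DKOITD library and Hk3 in each ITD and WT library. Both genes are free of close copies.

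**Figure D4:**
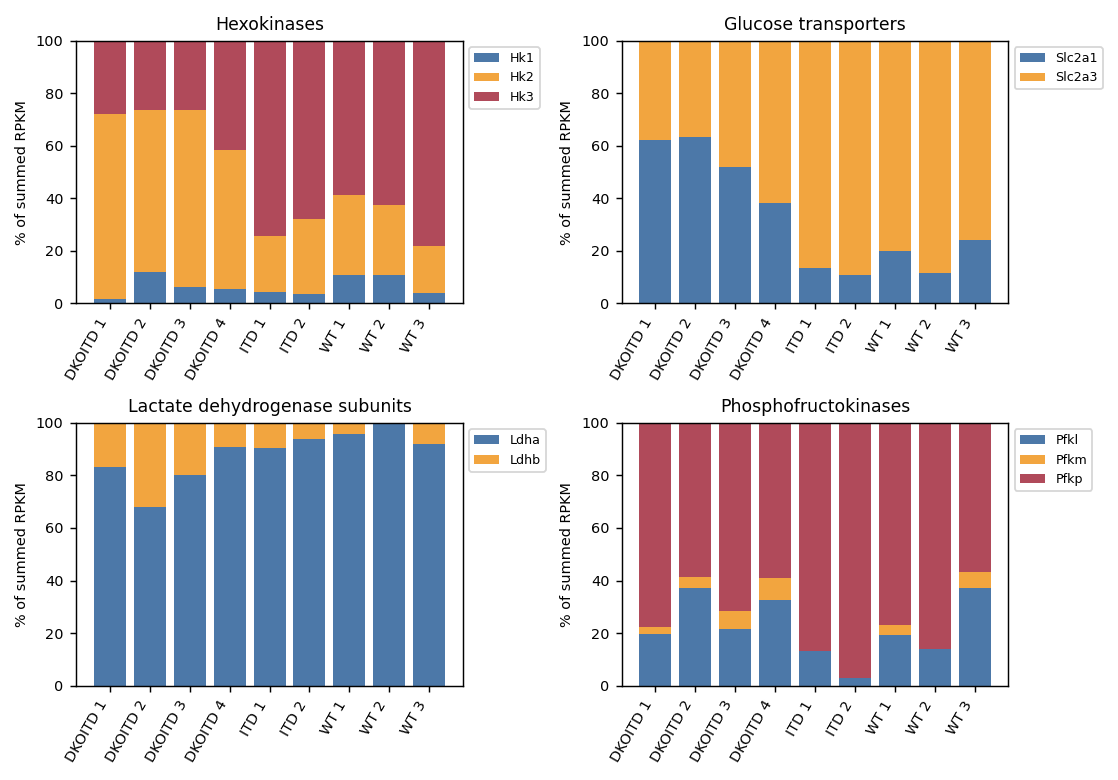
Stacked bars of the percent of summed RPKM taken by each isoform in each of the 9 libraries, for the hexokinases, the glucose transporters, the lactate dehydrogenase subunits and the phosphofructokinases. Hk3 takes 26.2% to 41.5% of hexokinase RPKM in DKOITD and 58.7% or more in the ITD and WT libraries, while the Pfkl and Pfkp shares overlap between DKOITD and WT.

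The bases before the start of Hk3 and of Aldoc are shown because these genes had the largest fall and the only rise. Both come from the RefSeq promoter table (GRCm38.p6), 5′ to 3′ on the gene's strand, and end where the gene begins in GENCODE vM21. Hk3 is the 250 bases on the minus strand of chr13:55021386-55021635 and Aldoc the 145 bases on the plus strand of chr11:78322823-78322967. Capitals mark the letters ACGTG or GCGTG (the core bound by HIF factors), TGTGGT (the core bound by RUNX factors) and GAGGAA (a core bound by PU.1), on either strand. In Hk3 the PU.1, HIF and RUNX cores follow each other in that order, all read on the opposite strand. The 145 bases of Aldoc hold the RUNX core alone, on the gene's own strand. The full RefSeq window of Aldoc, which reaches further past that end, also holds 1 ACGTG, 2 GCGTG and 1 GAGGAA. That of Hk3 holds TGTGGT 2 times.
Hk3: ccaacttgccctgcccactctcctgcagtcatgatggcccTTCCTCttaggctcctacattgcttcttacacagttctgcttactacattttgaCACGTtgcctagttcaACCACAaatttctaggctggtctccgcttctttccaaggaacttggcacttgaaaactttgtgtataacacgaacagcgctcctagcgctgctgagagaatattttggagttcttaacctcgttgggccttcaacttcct
Aldoc: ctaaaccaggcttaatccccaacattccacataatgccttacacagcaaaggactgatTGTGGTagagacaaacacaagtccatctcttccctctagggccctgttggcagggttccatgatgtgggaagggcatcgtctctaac
Such short words are common. Among all 32851 promoter windows of the RefSeq table, which reach a little past the start, 43.77% hold ACGTG or GCGTG, 16.76% hold TGTGGT and 28.28% hold GAGGAA. Windows were found for 34 of the 35 genes (47 windows), of which 36 held a HIF core, 6 TGTGGT and 12 GAGGAA. The member windows also held more CG pairs, with a median of 18 against 7 over all windows, and both HIF cores contain CG. Of the 10 genes that fell and have a window, 8 held a HIF core and 1 (Hk3) TGTGGT. A match describes these letters only and says nothing of a factor.

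Gpi1 (chromosome 7, 34201330 to 34230336), which turns glucose 6-phosphate into fructose 6-phosphate, measured 52.1, 90.9, 59.2 and 82.6 RPKM in DKOITD 1 to 4, 178 and 178 in ITD 1 and 2, and 161, 200.2 and 344 in WT 1 to 3. The DKOITD libraries were the 4 lowest. Gpi1 fell, with a log2 difference of -1.67 ± 0.32 (SE; limma, adjusted p = 0.00813), and its WT mean was 3.30 times the DKOITD mean. It did not pass per recovered read, at -0.91 (limma, adjusted p = 0.0519), or with columns of the same sum, at -0.28 (limma, adjusted p = 0.514). In GENCODE vM21, 11.48% of its exon bases are shared with Gm26762, and 1 pseudogene is 98.66% identical over the aligned stretch, so a part of its reads is uncertain.

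Phosphofructokinase, the committed step of glycolysis, is encoded by Pfkl (liver type), Pfkm (muscle type) and Pfkp (platelet type). Pfkp was the leading isoform per length in every library, at 10.2 to 24.8 RPKM. Pfkl ran from 4.13 to 11.8 RPKM in DKOITD, 0.688 to 2.06 in ITD and 2.52 to 6.71 in WT, and Pfkm did not exceed 1.79 RPKM anywhere. None of the 3 passed the test, with differences from WT of 0.37 (95% interval -0.44 to 1.18) for Pfkp, 0.69 (95% interval -0.43 to 1.80) for Pfkl and 0.64 (95% interval -0.27 to 1.55) for Pfkm. When columns were scaled to the same sum all 3 passed as rises. The share of Pfkl was 27.7% ± 8.35 in DKOITD (SD, n = 4) and 23.5% ± 12.3 in WT (SD, n = 3; two-sided exact permutation p = 0.571).

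The bifunctional enzymes Pfkfb3 and Pfkfb4 set the level of fructose 2,6-bisphosphate, the activator of phosphofructokinase. Pfkfb4 (chromosome 9, 108991778 to 109032228) measured 6.73, 6.999, 11.9 and 18.4 RPKM in DKOITD 1 to 4, 26.2 and 40.0 in ITD 1 and 2, and 22.0, 37.4 and 40.5 in WT 1 to 3. DKOITD 4 was the highest of its group and lay below every ITD and WT library. Pfkfb4 fell, with a log2 difference of -1.58 ± 0.42 (SE; limma, adjusted p = 0.0305), but leaving out DKOITD 1, 2 or 3 or WT 2 or 3 ended the call, with differences from -1.84 to -1.40 when 1 library was left out. Per recovered read and with columns of the same sum Pfkfb4 did not pass, at -0.85 and -0.25. Pfkfb3 measured 2.48, 3.47, 3.01 and 2.49 RPKM in DKOITD 1 to 4, 3.63 and 3.23 in ITD 1 and 2, and 7.07, 7.26 and 5.13 in WT 1 to 3. It was lower in all DKOITD libraries than in all WT libraries without passing, with a difference of -0.95 ± 0.42 (SE; limma, adjusted p = 0.148).

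Aldolase splits the 6-carbon sugar. Aldoc (chromosome 11, 78322968 to 78327781) measured 3.56, 7.55, 30.6 and 7.96 RPKM in DKOITD 1 to 4, 0 and 0 in ITD 1 and 2, and 0, 0 and 0 in WT 1 to 3. It was listed at 0 in all 5 ITD and WT libraries and was present in all 4 DKOITD libraries, with 73, 47, 563 and 203 recovered reads in DKOITD 1 to 4. The rise was 3.36 ± 0.60 (SE; limma, adjusted p = 0.00611) on the log2(RPKM + 1) scale, a size that depends on the pseudocount because the other group is listed at 0 (6.51 with a pseudocount of 0.1). Aldoc passed the filter on low values only through DKOITD, the group where it is high, so it had to differ for it to be tested. In the fit with no such filter its adjusted p was 0.0329 (limma). That fit still required a value above 0 in 1 library, which Aldoc had only in DKOITD. The same limit holds for its calls under every other setting. It has no close copy and shares no exon bases with another gene in GENCODE vM21. Aldoa, its abundant relative, measured 246, 472, 347 and 322 RPKM in DKOITD 1 to 4, 500.1 and 454 in ITD 1 and 2, and 253, 406 and 593 in WT 1 to 3, and its groups overlapped with a difference of -0.22 (95% interval -0.92 to 0.48). Per length Aldoc thus stayed below Aldoa in every library, at most 30.6 against 347 RPKM in DKOITD 3.

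The steps from the triose phosphates to pyruvate showed no call. Tpi1, triose phosphate isomerase, ran from 77.1 to 142 RPKM in DKOITD and 36.2 to 190.0 in WT, with a difference of 0.63 (95% interval -0.47 to 1.73). Gapdh, which makes NADH, measured 12.7, 11.1, 11.8 and 10.1 RPKM in DKOITD 1 to 4, 10.7 and 7.34 in ITD 1 and 2, and 5.51, 3.44 and 31.4 in WT 1 to 3, from 48 to 448 recovered reads per library, with a difference of 0.34 (95% interval -0.95 to 1.62). WT 3 held the highest Gapdh and WT 2 the lowest, so the WT range enclosed all DKOITD libraries. The ATP-forming kinase Pgk1 differed by -0.27 (95% interval -1.21 to 0.66), the mutase Pgam1 by -0.34 (95% interval -1.34 to 0.65) and Eno1 by 0.17 (95% interval -0.77 to 1.11). Eno2 was at 0.882 RPKM in DKOITD 1, 0.0351 in DKOITD 3 and 0 in the 7 others. The widths of these intervals do not allow the genes to be called alike in the 2 groups.

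Pkm, the pyruvate kinase of haematopoietic cells, measured 71.0, 140.3, 107 and 118 RPKM in DKOITD 1 to 4, 172 and 181 in ITD 1 and 2, and 139.9, 266 and 295 in WT 1 to 3. DKOITD 2 lay just above WT 1, and the difference of -1.06 ± 0.33 (SE; limma, adjusted p = 0.0522) missed the threshold. In GENCODE vM21, 15.34% of the Pkm exon bases are shared with Gm49759 on the same strand. Ldha, the muscle-type subunit of lactate dehydrogenase, measured 175, 221, 188 and 176 RPKM in DKOITD 1 to 4, 219 and 247 in ITD 1 and 2, and 184, 218 and 341 in WT 1 to 3. The Ldha groups overlapped, with a difference of -0.34 (95% interval -0.92 to 0.25). Ldhb, the heart-type subunit, measured 35.02, 105, 46.8 and 17.9 RPKM in DKOITD 1 to 4, 22.8 and 16.5 in ITD 1 and 2, and 8.24, 0.0685 and 29.0 in WT 1 to 3. Its mean was higher in DKOITD, but WT 3 lay above DKOITD 4 and the difference of 2.69 ± 0.90 (SE; limma, adjusted p = 0.0695) missed the threshold. Ldhb passed as a rise per recovered read, at 3.27 (limma, adjusted p = 0.0189), with columns of the same sum, at 3.83 (limma, adjusted p = 0.00486), and without WT 3.

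As a share of the summed RPKM of both subunits, Ldhb took 16.7, 32.1, 19.9 and 9.25% in DKOITD 1 to 4, 9.45 and 6.27 in ITD 1 and 2, and 4.28, 0.0314 and 7.85 in WT 1 to 3. Every DKOITD value exceeded every WT value, with means of 19.5% ± 9.53 (SD, n = 4) and 4.05% ± 3.92 (SD, n = 3; two-sided exact permutation p = 0.0571, adjusted 0.103 over 9 shares). Lactate leaves myeloid cells through Slc16a3, the carrier MCT4 (chromosome 11, 120948480 to 120960868). Slc16a3 measured 2.09, 9.66, 1.79 and 5.07 RPKM in DKOITD 1 to 4, 14.0 and 15.9 in ITD 1 and 2, and 15.6, 54.7 and 25.6 in WT 1 to 3. The 4 DKOITD libraries were the lowest and WT 2 the highest. Slc16a3 fell, with a log2 difference of -2.58 ± 0.55 (SE; limma, adjusted p = 0.0131), and its WT mean was 6.88 times the DKOITD mean. Without WT 2 and DKOITD 4 together it no longer passed, at -2.22 (limma, adjusted p = 0.0620).

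In the oxidative arm of the pentose phosphate pathway, G6pdx and Pgd make the NADPH. G6pdx, the entry enzyme, measured 54.3, 112, 73.9 and 114 RPKM in DKOITD 1 to 4, 186 and 214 in ITD 1 and 2, and 130.1, 157 and 357 in WT 1 to 3. All DKOITD values were below all WT values, but the closest, DKOITD 4 and WT 1, were near each other and the difference of -1.19 ± 0.38 (SE; limma, adjusted p = 0.0608) missed the threshold. Of its exon bases 13.57% are shared with Ikbkg on the opposite strand, and the libraries do not keep strand. Pgls, which acts between the 2 dehydrogenases, ran from 66.0 to 95.7 RPKM in DKOITD and 74.2 to 172 in WT, with a difference of -0.64 (95% interval -1.34 to 0.07). Of the Pgls exon bases 20.58% are shared with Fam129c on the same strand. Pgd (chromosome 4, 149149991 to 149166771), the second NADPH-forming enzyme, measured 42.2, 70.8, 36.7 and 84.5 RPKM in DKOITD 1 to 4, 226 and 243 in ITD 1 and 2, and 205, 394 and 309 in WT 1 to 3. The highest DKOITD library held less than any ITD or WT library. Pgd fell, with a log2 difference of -2.38 ± 0.35 (SE; limma, adjusted p = 0.00284), and its WT mean was 5.17 times the DKOITD mean.

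In the non-oxidative arm, Rpia and Rpe interconvert the pentose phosphates and Tkt and Taldo1 return them to glycolysis. Tkt (chromosome 14, 30548359 to 30574720) measured 40.2, 40.0, 42.3 and 76.6 RPKM in DKOITD 1 to 4, 96.8 and 131 in ITD 1 and 2, and 115, 298 and 197 in WT 1 to 3. DKOITD 1 to 3 were close to each other and DKOITD 4 stood above them, still below the ITD and WT libraries. Tkt fell, with a log2 difference of -1.96 ± 0.36 (SE; limma, adjusted p = 0.00735), and its WT mean was 4.09 times the DKOITD mean. With columns of the same sum it did not pass, at -0.57 (limma, adjusted p = 0.189). Rpia (chromosome 6, 70765720 to 70792232) measured 1.45, 6.17, 0.887 and 5.80 RPKM in DKOITD 1 to 4, 6.13 and 2.31 in ITD 1 and 2, and 16.2, 34.6 and 8.96 in WT 1 to 3. It fell, with a log2 difference of -2.24 ± 0.63 (SE; limma, adjusted p = 0.0391), but leaving out DKOITD 1, DKOITD 3, WT 1 or WT 2 ended the call, with differences from -2.67 to -1.75 when 1 library was left out. It did not pass per recovered read, at -1.62, or with columns of the same sum, at -1.11. Rpe, whose exons share 17.92% of their bases with Kansl1l, ran from 19.7 to 25.4 RPKM in DKOITD and 10.8 to 67.6 in WT, with a difference of -0.35 (95% interval -1.41 to 0.71).

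Taldo1 (chromosome 7, 141392199 to 141402968) measured 373, 357, 237 and 411 RPKM in DKOITD 1 to 4, 603 and 705 in ITD 1 and 2, and 502, 682 and 787 in WT 1 to 3. The groups did not overlap, and Taldo1 fell as deposited, with a log2 difference of -0.93 ± 0.27 (SE; limma, adjusted p = 0.0427), but the difference turned to 0.47 when columns were scaled to the same sum. Leaving out any single library other than DKOITD 4 or WT 1 also ended its call, with differences from -1.12 to -0.76, so Taldo1 is the least firm of the 12 calls. Summed over all 7 pentose phosphate genes, RPKM ran from 504 to 779 in DKOITD, 1254 to 1438 in ITD and 1076 to 1870 in WT.

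Glycogen is built by Gys1 and Gbe1 and broken down by Pygl, with phosphoglucomutase between glucose 1-phosphate and glucose 6-phosphate. Pygl (chromosome 12, 70190811 to 70231488), the liver-type phosphorylase also found in leukocytes, measured 53.3, 133, 43.5 and 109 RPKM in DKOITD 1 to 4, 206 and 239 in ITD 1 and 2, and 305, 329 and 304 in WT 1 to 3. It fell, with a log2 difference of -2.02 ± 0.37 (SE; limma, adjusted p = 0.00681), and its WT mean was 3.68 times the DKOITD mean. With columns of the same sum it did not pass, at -0.62 (limma, adjusted p = 0.130). Gys1 (chromosome 7, 45434844 to 45456619), the synthase, measured 1.26, 5.28, 0.954 and 4.79 RPKM in DKOITD 1 to 4, 5.56 and 19.6 in ITD 1 and 2, and 13.4, 22.9 and 18.3 in WT 1 to 3. DKOITD 2 was close to ITD 1, but all DKOITD libraries were below all WT libraries.

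Gys1 fell, with a log2 difference of -2.40 ± 0.57 (SE; limma, adjusted p = 0.0210), and did not pass with columns of the same sum, at -1.29 (limma, adjusted p = 0.0729). Leaving out DKOITD 1, DKOITD 3 or WT 2 ended its call, with differences from -2.68 to -2.11 when 1 library was left out, and 6.47% of its exon bases are shared with Ruvbl2. Pygl made up 96.9% ± 1.03 of the summed RPKM of Pygl and Gys1 in DKOITD (SD, n = 4) and 94.5% ± 1.16 in WT (SD, n = 3; two-sided exact permutation p = 0.0571, adjusted 0.103 over 9 shares). Gbe1, the branching enzyme, ran from 6.30 to 15.1 RPKM in DKOITD and 12.01 to 38.4 in WT, with a difference of -0.92 (95% interval -1.90 to 0.06).

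The rows named Pgm1 and Pgm2 are read with care, since RefSeq lists each symbol as a synonym of the other locus and the table gives no positions. Pgm1 measured 7.92, 20.2, 15.2 and 8.40 RPKM in DKOITD 1 to 4, 7.34 and 4.70 in ITD 1 and 2, and 2.26, 0.772 and 22.1 in WT 1 to 3, with a difference from WT of 1.35 (95% interval -0.27 to 2.97). Pgm2 measured 11.7, 15.4, 16.8 and 7.09 RPKM in DKOITD 1 to 4, 17.3 and 1.42 in ITD 1 and 2, and 23.1, 25.0 and 23.4 in WT 1 to 3, with a difference of -0.92 (95% interval -2.20 to 0.36). Neither passed, and within WT the Pgm1 row of WT 3 was the highest of all 9 libraries while those of WT 1 and WT 2 were the lowest.

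**Figure D5:**
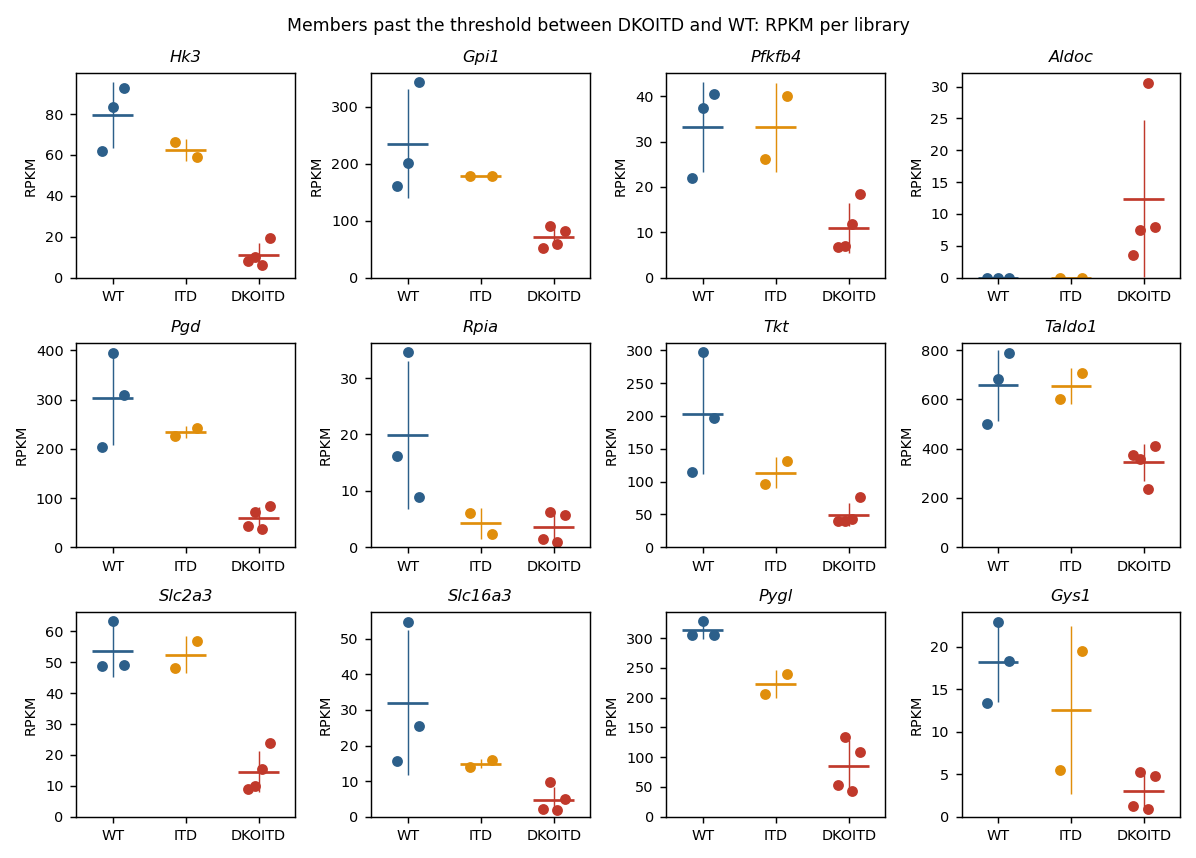
RPKM on a linear axis from 0 of the 12 genes that passed the test between DKOITD and WT, in each library (points), with the group mean (horizontal bar) and SD (vertical line, not drawn below 0). In 11 panels the DKOITD points lie below all WT points, and in the Aldoc panel the ITD and WT points are at 0.

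Other genes of the same routes were counted from lists chosen beside the 35. Of 12 other hexose and glycolysis genes tested, 2 fell and 1 rose. The ADP-dependent glucokinase Adpgk measured 52.3, 73.3, 25.5 and 231 RPKM in DKOITD 1 to 4, 554 and 570.1 in ITD 1 and 2, and 450.3, 455 and 794 in WT 1 to 3. It fell, with a log2 difference of -2.96 ± 0.56 (SE; limma, adjusted p = 0.00771), and the DKOITD libraries were the lowest. The mitochondrial glycerol 3-phosphate dehydrogenase Gpd2 fell as well, at -2.05 ± 0.52 (SE), and Galt, of galactose breakdown, rose by 1.90 ± 0.57 (SE). Of 14 genes of pyruvate and lactate handling, Mpc2, a subunit of the mitochondrial pyruvate carrier, fell at -1.19 ± 0.28 (SE) and Pdp2, a phosphatase of pyruvate dehydrogenase, rose by 1.79 ± 0.46 (SE).

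Of 18 other glycogen genes tested, 2 fell and 1 rose. Ugp2, which makes UDP-glucose for glycogen synthesis, fell at -1.37 ± 0.36 (SE) and Ppp1r3d, a glycogen-targeting subunit of protein phosphatase 1, at -2.49 ± 0.62 (SE). Pgm3, an enzyme of amino sugar synthesis in the phosphoglucomutase family, rose by 1.76 ± 0.44 (SE). None of 7 other pentose phosphate genes and none of 3 other sugar transport genes passed. These counts stand beside 12.7% called over all genes.

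Among 12 regulators of glycolytic genes tested, Myc passed and the other 11 did not. Over all genes 12.7% were called in this comparison. Neither this count nor that of the HIF targets below exceeds that share. Hif1a, the oxygen-regulated subunit of HIF-1, lay wholly higher in DKOITD (19.6 to 26.1 RPKM) than in ITD (18.9 to 19.5) and WT (10.9 to 13.8), but its difference from WT of 0.85 ± 0.32 (SE; limma, adjusted p = 0.0956) missed the threshold. Of the other regulators that did not pass, Vhl also lay wholly higher in DKOITD than in WT, and Arnt and Egln2 wholly lower. Over all genes, 14.1% lay wholly higher and 10.9% wholly lower. Myc, a transcription factor that drives growth and glycolytic genes in many cells, measured 9.64, 13.6, 16.99 and 8.62 RPKM in DKOITD 1 to 4, 1.87 and 8.99 in ITD 1 and 2, and 0.0668, 0 and 2.66 in WT 1 to 3. DKOITD 4 lay above all WT libraries but below ITD 2. Myc rose against WT, with a log2 difference of 3.02 ± 0.61 (SE; limma, adjusted p = 0.0101). Of 12 other targets of HIF factors tested, only Ankrd37 passed, at 10.1 to 56.3 RPKM in DKOITD, 0 in both ITD libraries, 9.34 in WT 1 and 0 in WT 2 and WT 3.

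Markers of several cell types also differed between DKOITD and WT. As given above, most neutrophil markers were lower and most dendritic cell markers higher in DKOITD. The 4 neutrophil markers that did not pass were Retnlg at -2.90, Mpo at 2.81, Prtn3 at 0.38 and Elane at 0.04. Of 13 monocyte and macrophage markers tested, 6 were higher and none lower. Summed monocyte marker RPKM ran from 15828 to 32689 in DKOITD, 42133 to 43847 in ITD and 12824 to 33242 in WT, so those sums overlapped between DKOITD and WT. Lyz2 alone made up most of each sum, at 13335 to 28917 RPKM in DKOITD and 10142 to 29961 in WT. The 6 markers that passed, Ccr2, Cd68, Mrc1, Emr1, Ms4a6c and Fcgr1, lay wholly higher in DKOITD than in WT. Ly6c2, which did not pass, lay wholly lower. Of 4 erythroid and megakaryocyte markers tested, 1 was lower, with sums of 0 to 1.40 RPKM in DKOITD, 0.0468 to 2730 in ITD and 17.8 to 17264 in WT. Hba-a1, Hba-a2, Hbb-b2 and Epor were at 0 in all libraries, as were the T cell genes Cd3e and Bcl11b, the B cell gene Pax5, the NK cell gene Prf1 and the eosinophil gene Epx. Of the 12 proliferation genes, 3 were lower. The part of these cell types in the differences of the sugar genes was not tested.

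A further feature runs with the groups: the sample descriptions begin with a number, 228, 267 and 274 for DKOITD 1 to 3 and 385 to 393 for DKOITD 4 and all ITD and WT libraries. The sources used here do not say what the number marks. With a term for these 2 series, 0 of the 34 genes passed between DKOITD and WT, as against 4 of all 10868 genes. The differences then rest on DKOITD 4 alone, at -1.97 for Hk3, -1.78 for Pgd and 3.16 for Aldoc. In DKOITD 4, the library of the later series, Hk3 was at 19.3 RPKM and Pgd at 84.5, nearer to WT than in DKOITD 1 to 3 for both genes, but Aldoc at 7.96 was not the lowest of its group.

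DKOITD against ITD asks what is added to the Flt3 allele by Cre with the floxed alleles. Hk3 was the 1 gene of the 34 that passed. It fell, with a log2 difference of -2.51 ± 0.42 (SE; limma, adjusted p = 0.0393). Over all genes, 0.0552% were called lower and 0.156% higher, 0.212% in all. The call was lost when DKOITD 1, 2 or 3, ITD 1 or 2 or WT 3 was left out, with differences from -2.80 to -2.31. At an unadjusted p under 0.05 (limma), 15 of 34 genes passed, beside 15.7% of all genes.

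Several genes came near the threshold against ITD. Pgd differed by -2.07 ± 0.39 (SE; limma, adjusted p = 0.0578), Aldoc by 3.36 ± 0.68 (SE) with adjusted p = 0.0578 (limma), and Slc2a3 by -1.86 ± 0.41 (SE) with adjusted p = 0.0639 (limma). Gpi1 differed by -1.35 ± 0.36 (SE) and Pygl by -1.52 ± 0.42 (SE), both short of the threshold. By overlap alone, 15 of 34 genes lay wholly lower in DKOITD than in ITD and 5 wholly higher, where the shares over all genes were 14% and 17.3%, 31.3% in all. The median difference of the 34 genes was -0.55 beside 0.11 over all genes, and 25 of 34 lay below 0 against 44.2% of all genes. DKOITD serves in both comparisons, so they are not independent of each other.

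ITD against WT asks what the Flt3 allele does alone, with 2 libraries against 3. None of the 34 genes passed, and 1 of all 10868 did, a share of 0.0092%. At an unadjusted p under 0.05 (limma), 2 of 34 genes passed, beside 7.93% of all genes. The largest of the 34 differences were those of Rpia at -1.91 ± 0.76 (SE; limma, adjusted p = 0.570) and Pgm2 at -1.90 ± 0.70 (SE; limma, adjusted p = 0.539), and ITD 1 and ITD 2 stood far apart for Pgm2, at 17.3 and 1.42 RPKM. By overlap 7 genes lay wholly lower in ITD and 0 wholly higher, where the shares over all genes were 8.99% and 10.1%, 19.1% in all, and 19 of 34 differences lay below 0 against 48.3% of all genes. The Hk3 difference was -0.33 (95% interval -1.30 to 0.65), that of Pgd -0.32 (95% interval -1.21 to 0.58) and that of Slc2a3 -0.03 (95% interval -0.97 to 0.92). In simulated data of this size 1.94% of 2-fold changes, planted in genes above a set level, were called, so the groups are not shown to be alike.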

How the data were processed

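RNA was measured in 9 libraries (4 DKOITD, 2 ITD, 3 WT), each from 100 sorted cells prepared with Smart-seq2, which keeps no strand, per the labels' protocols. The authors deposited RPKM for each gene symbol. The submitters' processing notes name STAR 2.4.2a, SAMtools 1.1, HTSeq 0.6.1p1 and the build mm10, without roles. Not given in the sources used here are the annotation, the handling of reads that match several genes and the scaling.

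Groups were read from the sample titles. The 10868 genes with an RPKM of 1 or more in 2 or more libraries were fitted as log2(RPKM + 1) in 1 model of all 9 libraries (R 4.3.3, limma 3.58.1, trended empirical Bayes), two-sided, with Benjamini-Hochberg adjustment over all genes and a threshold of 0.05. A difference on this log2(RPKM + 1) scale is smaller than the true change where values are low. Where a gene outside the 35 is said to rise or fall without a printed p, it passed this threshold. Isoform shares were compared by exact permutation tests.

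Whole reads were recovered from steps in the RPKM for 15564 of 15566 genes, within 0.0001 reads, with gene lengths fitted from the values, so no count test was run and reads serve only for depth and scaling. The 36 library pairs held no identical columns. Close copies were sought with blastn 2.17.0, and positions and exons are from GENCODE vM21. In simulated data of the same size for DKOITD against WT, over 10868 genes, 8-fold changes were called in 81.4% of cases, 4-fold changes in 56.7% and 2-fold changes in 4.78%, and 4.04% of calls were false. For DKOITD against ITD these shares were 72%, 36.3%, 1.94% and 4.69%.

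Named genes were all 35, and up to 3 called genes from each list of related genes. Hif1a, Arnt, Vhl, Egln2 and the single B cell, NK cell and monocyte markers were named after their values were seen. The 35 genes, the lists and the tests were chosen with earlier results of these data known. Alternatives were other pseudocounts, filters, scalings, library weights, a replicate block, a term for the label numbers and leaving out libraries.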

Additional observations from a re-analysis of the deposited data

Results flagged for a closer look

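In 44 sets of 4 DKOITD values, 1 set for each gene and each share, the most distant library was compared with the range of its group, a criterion that chance meets in about 1 of 20 sets. It was met in 4. Aldoc in DKOITD 3 was 30.6 RPKM, with the other DKOITD libraries at 3.56 to 7.96. Eno2 in DKOITD 1 was 0.882 RPKM, with the others at 0 to 0.0351. Tkt in DKOITD 4 was 76.6 RPKM, with the others at 40.0 to 42.3. The Hk3 share of hexokinase RPKM in DKOITD 4 was 41.5%, with the others at 26.2% to 27.9%. DKOITD 4 also had the highest summed neutrophil marker RPKM of its group, 266601, and is the DKOITD library whose label number belongs to the later series. Its part in these values was not tested.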

How the results depend on the processing

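Between DKOITD and WT, 12 of the genes passed as deposited, and 8 to 14 passed under the other planned settings except 1: with a term for the 2 series of label numbers, 0 passed. Over all genes, 1380 calls became 2782 per recovered read, 5137 with columns of the same sum, 733 with no filter, 884 with the replicate block, 611 without DKOITD 1, 541 without DKOITD 3, 766 without WT 2 and 4 with the label number term. Leaving out 1 library gave 8 to 14 called genes. These counts pool both directions. As deposited 11 genes fell and 1 rose, whereas with columns of the same sum 3 fell and 11 rose. Without WT 2 and DKOITD 4, or WT 2 and DKOITD 2, settings chosen after seeing the data, 8 and 9 passed. Hk3, Aldoc and Pgd passed in 19 of 20 alternatives, Tkt, Slc2a3, Pygl and Slc16a3 in 18, Gpi1 in 17, Gys1 in 13, Pfkfb4 and Rpia in 9 and Taldo1 in 3, and Taldo1 turned to 0.47 with columns of the same sum. The Pfkl share difference ran from -0.556 to 11.2 percentage points when 1 library was left out, and was below 0 without WT 2 only. The other 8 share differences kept their sign whichever library was left out. The cause was not tested.

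Between DKOITD and ITD, where 1 gene passed, the count was 0 with no filter, 0 with the label number term and 0 with only the 2 groups fitted. It was 2 after quantile normalisation (both falls), 3 per recovered read (2 falls, 1 rise), 5 with columns of the same sum (1 fall, 4 rises) and 6 with library weights (5 falls, 1 rise). It ran from 0 to 3 when 1 library was left out. It was 3 without WT 2 and DKOITD 4, and 2 without WT 2 and DKOITD 2. With a pseudocount of 0.1, Aldoc passed as a rise and Hk3 did not pass. Over all genes the count, 23 as deposited, ran as high as 1551 with columns of the same sum. With 1 ITD library left out, the other is assumed to vary like the rest. Between ITD and WT, 0 passed under every setting run.

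No pairing by the replicate numbers of the titles was seen: over the 7 same-numbered pairs the correlation of deviations from the group means lay between -0.0444 and 0.0707, and 0 pairs exceeded 0.1. Because deviations were centred within such small groups, low correlations do not exclude pairing. With the replicate block, 11 genes passed between DKOITD and WT (Taldo1 did not), 1 between DKOITD and ITD and 0 between ITD and WT. Depth limits mainly the low genes: Gapdh rested on 48 to 448 recovered reads per library.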
